A study of Rattus norvegicus with 9 samples.

Results

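The fibrillar collagens and the genes of the stromal matrix were examined in rat uterus on 9 Affymetrix expression arrays. The 44 genes were chosen by symbol, and each was represented by its probe set with the highest mean over the arrays. Of these, 42 had a named probe set, and all 42 were among the 10973 genes tested. Tnxb and Thbs1, which encode tenascin X and thrombospondin 1, were not analysed here. Of the 42 genes, 40 exceeded the filter on dim probe sets on all 9 arrays, while Col5a3 exceeded it on 3 arrays and Tnc on 4.

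Uterine tissue came from female rats in 3 groups with 3 arrays each, out of 18 rats in groups of 6. Treatment rats (arrays 31, 32 and 33) received electroacupuncture at the Guanyuan and Sanyinjiao points for 15 min per session on 7 days, then ovulation induction with continued acupuncture. For induction, rats were injected with PMSG (0.5 U each), a serum gonadotropin of pregnant mares that stimulates the follicles. The same amount of HCG, the gonadotropin that brings on ovulation, followed after 48 h. Model rats (arrays 21, 22 and 23) received the induction without acupuncture, and control rats (arrays 41, 42 and 43) received neither. The labels mention no sham needling. The labels give no strain, age, cycle stage or time of tissue collection. They do not say that each array held 1 animal, so the p-values measure the spread between these arrays, which may in part be technical.

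Fibrillar collagens assemble into the banded fibres that give connective tissue its tensile strength. In the uterus, stromal fibroblasts and smooth muscle cells secrete these collagens, and the small leucine-rich proteoglycans bind the fibrils and set their diameter and spacing. Lysyl oxidases crosslink collagen and elastin, and the matricellular proteins, which include periostin and the SPARC family, act between the matrix and the cell surface. The uterine matrix is known to be remodelled under ovarian steroids during the cycle and around implantation.

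Promoter sequence is shown for Col1a2, a chain of the major fibrillar collagen, and for Sparcl1, Postn, Pdgfra and Col18a1, each with a difference over 1 in size in a comparison below. Each run is the 250 bases before the RefSeq gene start on build GRCr8, written 5′ to 3′ along the gene's strand. Distances are counted from this annotated start, which was not checked against the site where transcription begins. A run may therefore hold transcribed bases. Capitals mark a match, on either strand, to the CCAAT motif, the TATAAA motif known as the TATA box, or the GGGCGG motif known as the GC box. The motifs searched do not overlap one another in these windows.
Col1a2 promoter: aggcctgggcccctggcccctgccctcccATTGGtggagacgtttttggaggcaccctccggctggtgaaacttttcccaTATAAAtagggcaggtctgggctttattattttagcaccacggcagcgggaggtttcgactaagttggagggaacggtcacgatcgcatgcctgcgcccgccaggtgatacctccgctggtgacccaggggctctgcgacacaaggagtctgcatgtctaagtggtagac
Sparcl1 promoter: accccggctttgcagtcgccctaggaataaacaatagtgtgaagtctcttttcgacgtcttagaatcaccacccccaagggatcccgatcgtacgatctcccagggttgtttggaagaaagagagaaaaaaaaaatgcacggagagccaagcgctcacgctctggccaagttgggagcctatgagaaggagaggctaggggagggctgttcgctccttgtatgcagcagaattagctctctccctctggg
Postn promoter: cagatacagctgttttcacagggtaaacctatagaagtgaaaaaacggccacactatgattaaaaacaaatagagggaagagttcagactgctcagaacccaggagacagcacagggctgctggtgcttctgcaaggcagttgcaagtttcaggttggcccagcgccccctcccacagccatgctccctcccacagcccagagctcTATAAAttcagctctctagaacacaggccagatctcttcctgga
Pdgfra promoter: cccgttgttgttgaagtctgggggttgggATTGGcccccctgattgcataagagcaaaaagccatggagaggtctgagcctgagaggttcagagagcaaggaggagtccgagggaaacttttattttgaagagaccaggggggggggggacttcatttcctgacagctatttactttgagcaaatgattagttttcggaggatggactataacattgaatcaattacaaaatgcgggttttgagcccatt
Col18a1 promoter: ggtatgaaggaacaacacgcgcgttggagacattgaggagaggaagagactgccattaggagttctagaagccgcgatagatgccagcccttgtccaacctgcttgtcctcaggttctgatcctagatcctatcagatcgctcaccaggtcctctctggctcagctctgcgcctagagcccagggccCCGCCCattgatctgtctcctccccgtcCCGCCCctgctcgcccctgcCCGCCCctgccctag

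The Col1a2 window (chr4:33518307-33518556, plus strand) held a CCAAT match on the opposite strand at 221 to 217 bases before the start and a TATAAA match at 170 to 165 bases. The Pdgfra window (chr14:33408517-33408766, minus strand) held a CCAAT match on the opposite strand, also at 221 to 217 bases. Col18a1 (chr20:11473395-11473644, plus strand) held 3 GGGCGG matches on the opposite strand, at 63 to 58, 35 to 30 and 15 to 10 bases. The Postn window (chr2:140677811-140678060, plus strand) held a TATAAA match at 44 to 39 bases. The Sparcl1 window (chr14:5937234-5937483, plus strand) held none of the motifs. Of the 44 genes, 25 matched an entry of the promoter table. CCAAT was found in 8 of the 25 windows (32%), against 34.3% of all 27457 windows of the same length. TATAAA was found in 4 (16%), against 13.1% of all, and GGGCGG in 11 (44%), against 32.4% of all. A motif match is a description of these letters and not a binding site.

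Array values are given as log2 of the deposited intensity plus 16, and every difference is a log2 fold change on this scale, which understates the change of dim genes. Control 43 stood apart from the other control arrays over all genes. Its correlation with them was 0.8867 and 0.9161, against 0.9799 between controls 41 and 42, and it was most like model 21 (0.9723). Treatment arrays correlated with one another at 0.9745 to 0.9876 and model arrays at 0.9565 to 0.9709. The ratio of 3′ to 5′ signal for Actb, a measure of RNA integrity, was 5.95 to 7 in treatment, 5.19 to 6.58 in model and 5.07 to 7.84 in control arrays, with the highest value on control 43. For Gapdh the ratio was 1.12 to 1.24 in treatment, 1.14 to 1.39 in model and 1.1 to 1.3 in control arrays, with the highest value on model 21. Of 7 uterine markers listed, 6 were among the genes tested. Hoxa10, given here as 1 example, lay at 7.63 to 8.02 in treatment, 8.08 to 8.64 in model and 7.42 to 8.93 in control arrays. Of the 6 markers, 3 had a higher and 3 a lower mean in model than in control arrays (median difference -0.03). Relative to model arrays, 2 were higher and 4 lower in treatment arrays (median -0.15). Relative to control arrays, 1 was higher and 5 were lower in treatment arrays (median -0.27). No uterine marker passed an adjusted p under 0.05.

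Markers of other uterine cell types also differed between arrays. The summed intensity of 12 of 13 epithelial markers was 4082 to 6358 in treatment and 3555 to 4711 in model arrays, against 19836, 14501 and 4674 on controls 41, 42 and 43. The 12 smooth muscle markers summed to 28263 to 34163 in treatment, 29594 to 34851 in model and 18584 to 29760 in control arrays. For 7 of 9 endothelial markers the sums were 388 to 918 in treatment, 969 to 1131 in model and 705 to 1368 in control arrays, with the lowest on treatment 32. The sums for 8 of 10 leukocyte markers were 756 to 1343 in treatment, 970 to 3802 in model and 1259 to 3146 in control arrays. The fibroblast markers Pdgfra, Pdgfrb, Thy1, Col1a1, Col1a2, Col3a1, Dcn and Lum are themselves among the matrix genes. No marker tested was listed at 0 on any array. In whole tissue, fewer cells of a type and less RNA per cell cannot be told apart, and the part of these marker differences in the results below was not tested.

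No matrix gene passed an adjusted p under 0.05 in any of the 3 comparisons. In model against control, 0 of 42 were called, where 0.0273% of all genes were called. The same count was 0 of 42 in treatment against control, where 0.51% of all genes were called, and 0 of 42 in treatment against model, where 0% were called. At an unadjusted p under 0.05 the matrix genes numbered 9, 7 and 2 in these comparisons, or 21.4%, 16.7% and 4.76% of the 42, against 12.4%, 17.4% and 14.7% of all genes. The median half-width of the 95% interval of a difference was 0.63. The whole interval lay within 1 either way for 22, 22 and 25 of the 42 genes in the same order of comparisons.

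**Figure D1:**
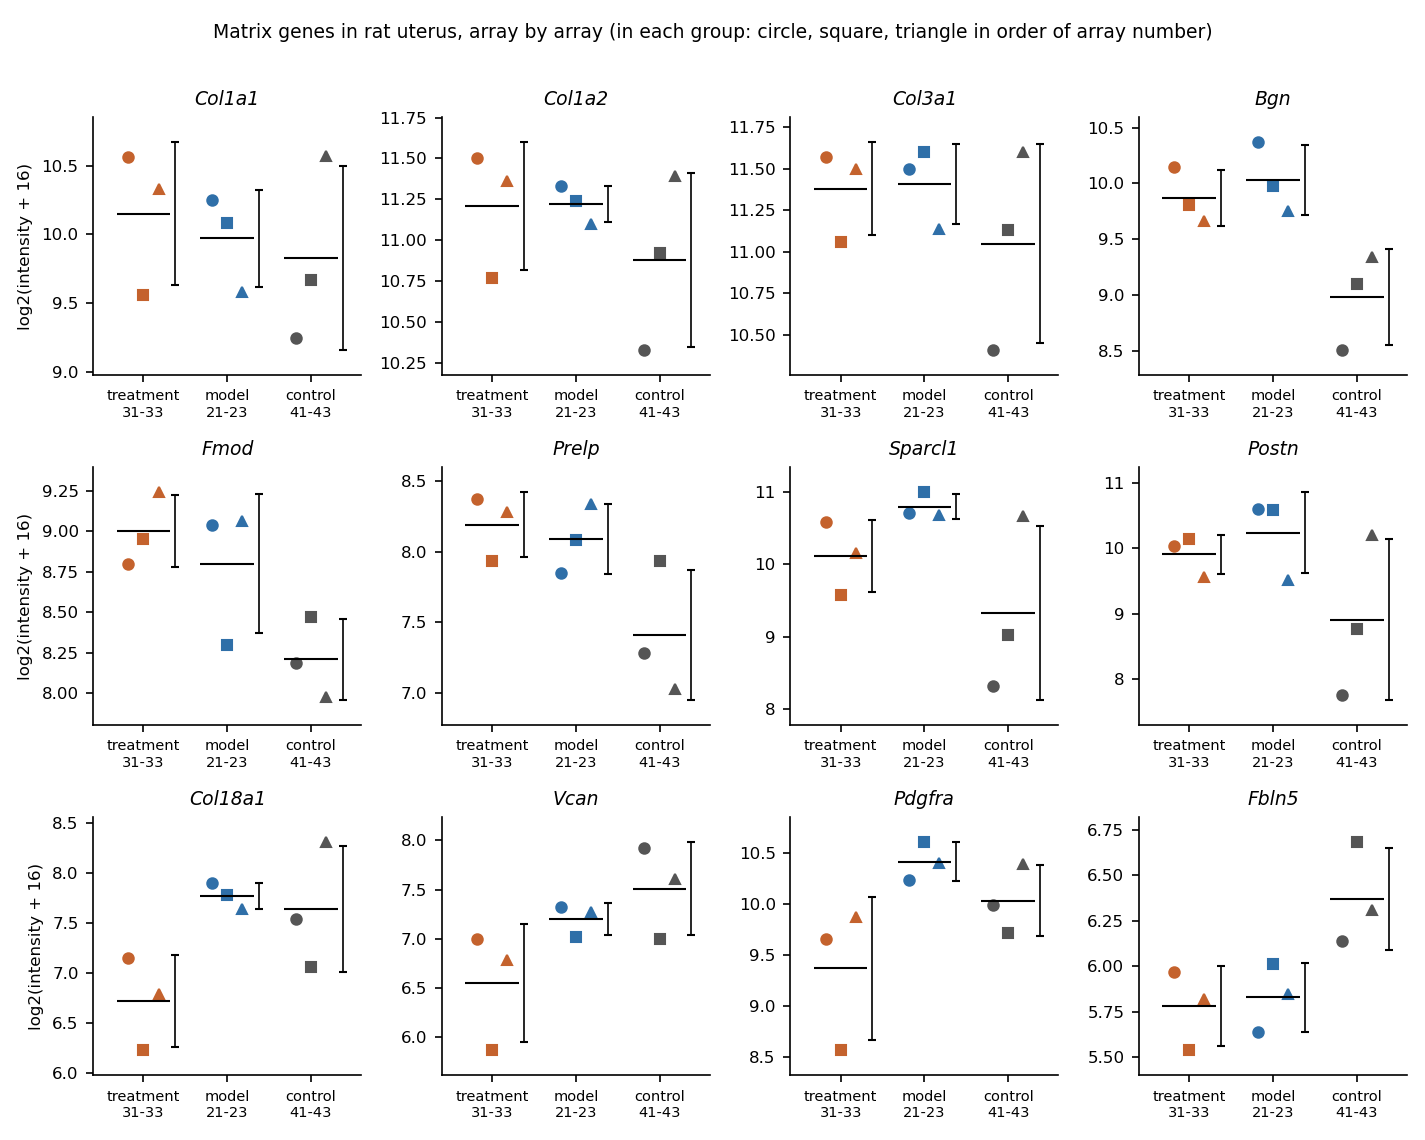
Values of 12 matrix genes on each array, as log2 of intensity plus 16, with 1 panel per gene and the groups treatment, model and control from left to right. Points are single arrays (circle, square and triangle in order of array number), the horizontal line is the group mean and the bracket is ± SD of 3 arrays. Bgn in every treatment and model array (9.66 to 10.37) lies above every control array (8.51 to 9.34), while Postn and Sparcl1 on control 43 reach the level of the induced groups.

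Model against control compared ovulation induction alone with no treatment. Of the 42 genes, 31 had a higher mean in model arrays and 11 a lower one, or 73.8% higher, where 53.5% of all genes had a higher mean. The median difference was 0.17, against 0.02 over all genes, and single genes ran from -0.54 to 1.46. The adjusted p-values lay between 0.203 and 0.984. The median depended on single control arrays. It rose to 0.46 without control 43, against 0.03 over all genes, and its sign turned without control 41, at -0.04.

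The fibrillar collagen chains overlapped between model and control arrays. Col1a1, which encodes the alpha 1 chain of type I collagen, measured 10.25, 10.08 and 9.58 in model arrays, against 9.25, 9.67 and 10.57 in control arrays. The highest of these 6 values belonged to control 43, and the groups overlapped. The difference was 0.14 with a 95% interval of -0.72 to 1.0 (SE 0.37, adjusted p = 0.878). Its partner chain Col1a2 measured 11.33, 11.24 and 11.10 in model arrays, against 10.33, 10.92 and 11.39 in control arrays, a difference of 0.34 (-0.29 to 0.97, adjusted p = 0.588). Col3a1, the type III chain that is abundant in distensible organs, measured 11.50, 11.60 and 11.14 in model arrays, against 10.41, 11.13 and 11.60 in control arrays, a difference of 0.37 (-0.29 to 1.03, adjusted p = 0.578). In both chains control 41 was the lowest array and control 43 lay above or next to the highest model array. Of the 6 fibrillar chains, 5 had a higher and 1 a lower mean in model arrays, with a median difference of 0.24. The lower one was Col5a3 (-0.08), which lay near the filter level and exceeded it on 3 arrays only. The median was 0.55 without control 43 and -0.02 without control 41, with 3 chains higher and 3 lower.

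The small leucine-rich proteoglycans all had a higher mean in model arrays, with a median difference of 0.49 over 6 genes and none called. Bgn, which encodes biglycan, a proteoglycan that binds collagen fibrils and growth factors, measured 10.37, 9.98 and 9.75 in model arrays, against 8.51, 9.10 and 9.34 in control arrays. Every model array was above every control array, by a gap of 0.41. The means were 10.03 ± 0.31 in model and 8.98 ± 0.43 in control arrays (SD, n = 3 each), a difference of 1.05 (SE 0.24, interval 0.49 to 1.61, adjusted p = 0.203). Prelp, a proteoglycan that anchors basement membrane to connective tissue, measured 7.85, 8.08 and 8.34 in model arrays, against 7.28, 7.93 and 7.03 in control arrays, a difference of 0.68 (SE 0.24, adjusted p = 0.338). Fmod, which encodes the fibril-binding fibromodulin, measured 9.04, 8.30 and 9.06 in model arrays, against 8.19, 8.47 and 7.98 in control arrays, a difference of 0.58 (SE 0.23, adjusted p = 0.371). For Prelp and Fmod the groups overlapped through control 42, and control 43 was the lowest array. Dcn, which encodes decorin, averaged 11.23 ± 0.21 in model and 11.02 ± 0.25 in control arrays, a difference of 0.21 (adjusted p = 0.695). Lum, which encodes lumican, ranged from 7.75 to 9.22 in model and from 7.39 to 9.2 in control arrays, a difference of 0.39 (adjusted p = 0.741).

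The largest differences between model and control belonged to the matricellular glycoproteins. Sparcl1, a secreted relative of SPARC, measured 10.71, 10.99 and 10.67 in model arrays, against 8.32, 9.02 and 10.66 in control arrays. The groups were separated by 0.01 only, because control 43 lay next to the model arrays. The difference was 1.46 (SE 0.53, interval 0.25 to 2.67, adjusted p = 0.351). Postn, which encodes periostin, a matricellular protein that promotes collagen assembly, measured 10.61, 10.59 and 9.52 in model arrays, against 7.76, 8.76 and 10.20 in control arrays. Control 43 exceeded model 23, and the difference was 1.33 (SE 0.57, interval 0.03 to 2.63, adjusted p = 0.395). Sparc, which encodes a collagen-binding glycoprotein also called osteonectin, measured 10.50, 10.87 and 10.44 in model arrays, against 9.42, 10.11 and 10.61 in control arrays, a difference of 0.56 (adjusted p = 0.468). Fn1, which encodes fibronectin, averaged 9.98 ± 0.23 in model and 10.10 ± 0.26 in control arrays, a difference of -0.12 (adjusted p = 0.772).

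Fbln5, Lox, Thbs2 and Fbln1 had the lowest differences, but their roles did not fall as a whole. Of the 7 elastic fibre genes 5 had a higher mean in model arrays and 2 a lower one, and the 4 crosslinking and processing genes were split 2 and 2. Fbln5, which encodes fibulin 5, a protein needed to organise elastic fibres, measured 5.64, 6.01 and 5.85 in model arrays, against 6.14, 6.68 and 6.31 in control arrays. Every model array was below every control array, by a gap of 0.13, and the difference was -0.54 (SE 0.17, adjusted p = 0.307). Lox, which encodes lysyl oxidase, measured 6.68, 7.5 and 6.27 in model arrays, against 7.33, 7.37 and 7.29 in control arrays, a difference of -0.51 (SE 0.37, adjusted p = 0.543). The model arrays lay on both sides of the narrow control range. Thbs2, which encodes thrombospondin 2, had a difference of -0.42 (SE 0.16, adjusted p = 0.371), and Fbln1, which encodes fibulin 1, had one of -0.32 (SE 0.14, adjusted p = 0.398), with overlapping groups for both. Eln, which encodes elastin, measured 6.30, 6.05 and 5.95 in model arrays, against 5.84, 5.68 and 5.89 in control arrays, a difference of 0.30 (adjusted p = 0.359).

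Groups that did not overlap were few. Bgn, Eln and Sparcl1 were higher in every model array than in every control array, or 7.14% of the 42 genes, against 7.79% of all genes. Fbln5 was lower in every model array, or 2.38%, against 6.71% of all genes. Eln and the genes of the other comparisons that are named for the absence of overlap were picked after their values were seen.

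Control 43 set much of the spread among the matrix genes. It held the highest value of the 9 arrays in 18 of the 42 genes (42.9%), against 16.7% of all genes, whereas control 41 held the lowest in 14 (33.3%), against 19.9% of all genes. Control 43 lay at or above the lowest model array in 36 of 42 genes and above every model array in 24, against counts at or above the lowest model array of 15 for control 41 and 23 for control 42. The same counts were not taken over all genes, so they do not set the matrix genes apart from the rest. Without control 43, 3 of the 42 genes were called higher in model arrays (7.14%), where 5.7% of all genes were called higher and 12.6% were called in either direction. They were Sparcl1 (difference 2.12, adjusted p = 0.00844), Bgn (1.23, adjusted p = 0.0209) and Postn (1.98, adjusted p = 0.0225). This fit was picked out after control 43 was seen to stand apart, and it rests on controls 41 and 42 alone. Its adjusted p-values describe the dependence on that array and are no support for a difference. No matrix gene was called with any other single array left out. Without control 43 no matrix gene was called lower, where 6.92% of all genes were. Then 17 of the 42 genes (40.5%) were higher in every model array than in controls 41 and 42, where 27% of all genes were, and 2 (4.76%) were lower, where 21.1% were. Without that array 10 of the 12 epithelial markers were called lower in model arrays and 2 of the 12 smooth muscle markers higher.

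**Figure D2:**
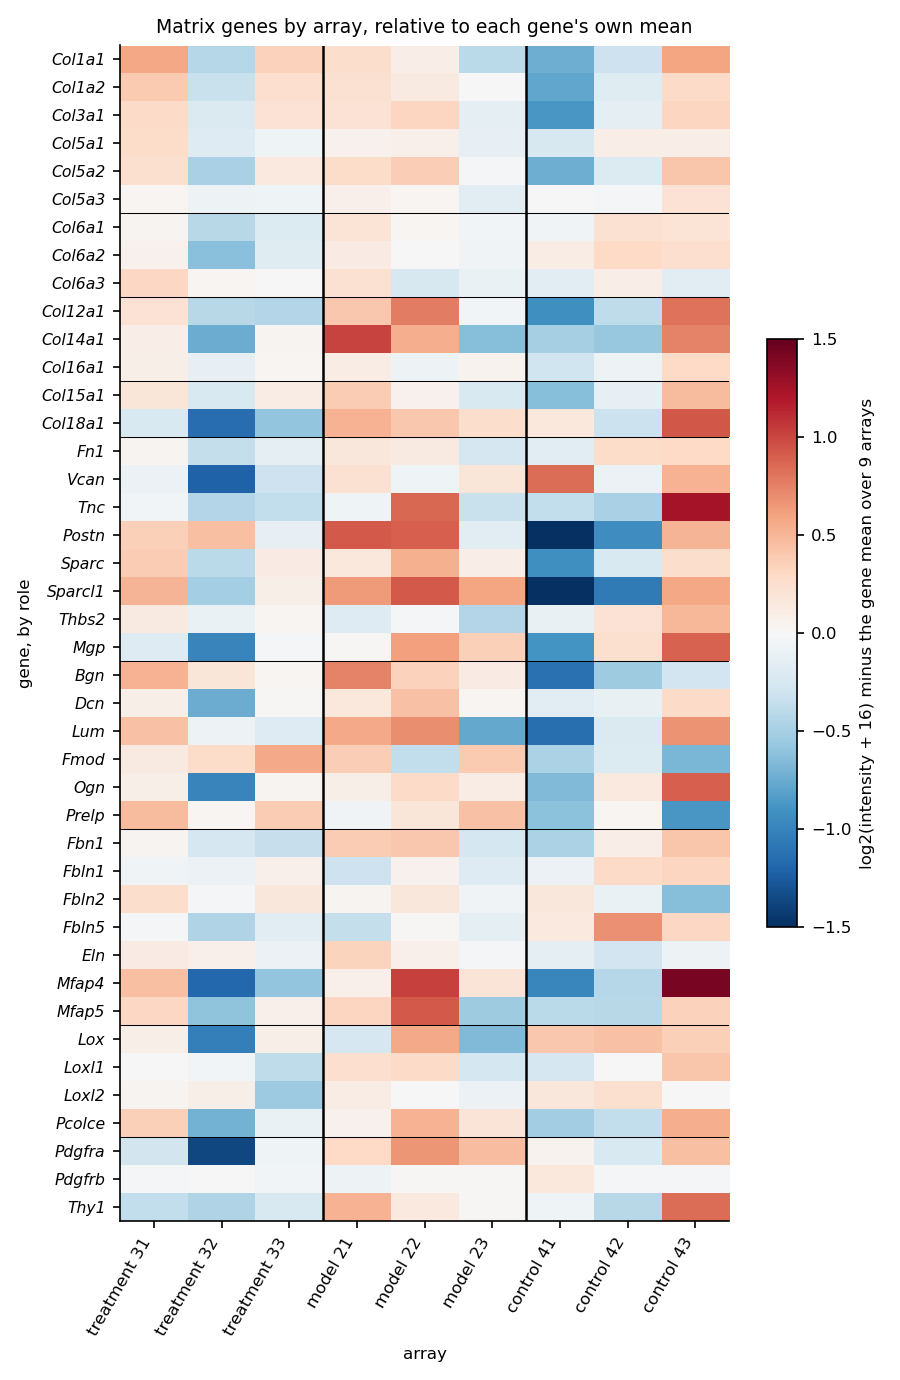
Deviation of each of the 42 matrix genes from its own mean over the 9 arrays, in log2 units, with genes in rows grouped by role and arrays in columns in the order treatment, model and control. Colours are limited to 1.5 either way, so larger deviations share the end colours. Control 41 and treatment 32 are low and control 43 is high across most roles.

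Treatment against control set acupuncture with induction against untreated rats, and shares its control arrays with the comparison above. Of the 42 genes, 18 had a higher mean in treatment arrays and 24 a lower one, or 42.9% higher, where 42.2% of all genes had a higher mean. The median difference was -0.07, against -0.04 over all genes, with single genes from -0.96 to 1.0 and adjusted p-values of 0.141 to 0.965.

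The fibrillar collagens again overlapped with the control arrays. Col1a1 measured 10.56, 9.56 and 10.33 in treatment arrays, against the 9.25 to 10.57 of the control arrays, a difference of 0.32 (interval -0.53 to 1.18, adjusted p = 0.689). Col1a2 measured 11.50, 10.77 and 11.36 in treatment arrays, a difference of 0.33 from control (adjusted p = 0.566). Col3a1 measured 11.57, 11.06 and 11.50, also a difference of 0.33 (adjusted p = 0.579). Within the treatment group, array 32 was the lowest for each of these chains. Of the 6 fibrillar chains, 5 had a higher and 1 a lower mean in treatment arrays, with a median difference of 0.23. The lower one was again the dim Col5a3 (-0.09). The median was 0.51 without control 43 and -0.04 without control 41, with 3 chains higher and 3 lower.

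Biglycan, fibromodulin and prolargin transcripts were the matrix transcripts with the lowest adjusted p-values among those higher in treatment arrays. Bgn measured 10.15, 9.81 and 9.66 in treatment arrays, above the control range of 8.51 to 9.34 by a gap of 0.32. The difference was 0.89 (SE 0.24, interval 0.33 to 1.44, adjusted p = 0.141). Fmod measured 8.80, 8.95 and 9.24 in treatment arrays, above the control range of 7.98 to 8.47 by 0.33, with a difference of 0.79 (SE 0.23, adjusted p = 0.161). Prelp measured 8.37, 7.93 and 8.28 in treatment arrays, against 7.28, 7.93 and 7.03 in control arrays, a difference of 0.78 (SE 0.24, adjusted p = 0.174). For Prelp the lowest treatment array and control 42 differed by less than the last digit printed. Over the 6 leucine-rich proteoglycans the median difference was 0.53, with 4 higher and 2 lower means. Dcn averaged 10.80 ± 0.46 in treatment and 11.02 ± 0.25 in control arrays (difference -0.22, adjusted p = 0.662), and Lum averaged 8.58 ± 0.34 in treatment and 8.30 ± 0.91 in control arrays (0.28, adjusted p = 0.813).

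Among the matricellular genes, Postn measured 10.04, 10.14 and 9.57 in treatment arrays, a difference of 1.0 from control (SE 0.57, adjusted p = 0.391). Only control 43, at 10.20, reached that range. Sparcl1 measured 10.58, 9.57 and 10.16 in treatment arrays, a difference of 0.77 (SE 0.53, adjusted p = 0.474), with control 43 at 10.66 above all of them. Sparc had a difference of 0.33 (adjusted p = 0.611) and Fn1 one of -0.29 (adjusted p = 0.413). Vcan, which encodes the large proteoglycan versican of expanding and provisional matrix, measured 7.00, 5.87 and 6.78 in treatment arrays, against 7.92, 7.00 and 7.61 in control arrays. The groups overlapped at the value of treatment 31 and control 42, and the difference of -0.96 (SE 0.32, adjusted p = 0.199) was the lowest among the matrix genes.

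Further low differences came from other roles. Col18a1, whose product carries the endostatin fragment and lies in basement membranes, measured 7.15, 6.23 and 6.79 in treatment arrays, against 7.54, 7.06 and 8.31 in control arrays, a difference of -0.91 (SE 0.32, adjusted p = 0.222). Lox measured 7.02, 5.90 and 7.02 in treatment arrays, below the control range of 7.29 to 7.37 by a gap of 0.26, with a difference of -0.68 (SE 0.37, adjusted p = 0.373). Pdgfra, the receptor for platelet-derived growth factor that marks stromal fibroblasts, measured 9.66, 8.57 and 9.87 in treatment arrays, against 9.99, 9.71 and 10.39 in control arrays, a difference of -0.66 (SE 0.33, adjusted p = 0.335). The Pdgfra groups overlapped through treatment 33. Fbln5 had a difference of -0.60 (SE 0.17, adjusted p = 0.155) and Col6a2, a chain of the beaded filament collagen VI, one of -0.47 (SE 0.16, adjusted p = 0.213).

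Bgn, Fmod and Prelp were higher in every treatment array than in every control array, or 7.14% of the 42 genes, against 9.4% of all genes. Col6a2, Fbln5 and Lox were lower in every treatment array, again 7.14%, against 13.9% of all genes. Without control 43, 2 genes were called higher in treatment arrays (4.76%), where 1.49% of all genes were called higher, 5.08% lower and 6.56% in either direction. They were Bgn (difference 1.06, adjusted p = 0.0431) and Sparcl1 (1.44, adjusted p = 0.0331). Postn then had an adjusted p of 0.0531 at a difference of 1.65. This fit too was picked out after control 43 was seen, so its calls describe the dependence on that array only. The median over the 42 genes became 0.13, against -0.01 over all genes, whereas it was 0.05 without treatment 32 and -0.25 without control 41. Against controls 41 and 42 alone, 7 genes (16.7%) were higher in every treatment array, where 19.5% of all genes were, and 4 (9.52%) were lower, where 26.7% were. Of the epithelial markers, 4 were called lower in treatment arrays without control 43, and 1 smooth muscle marker was called higher.

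**Figure D3:**
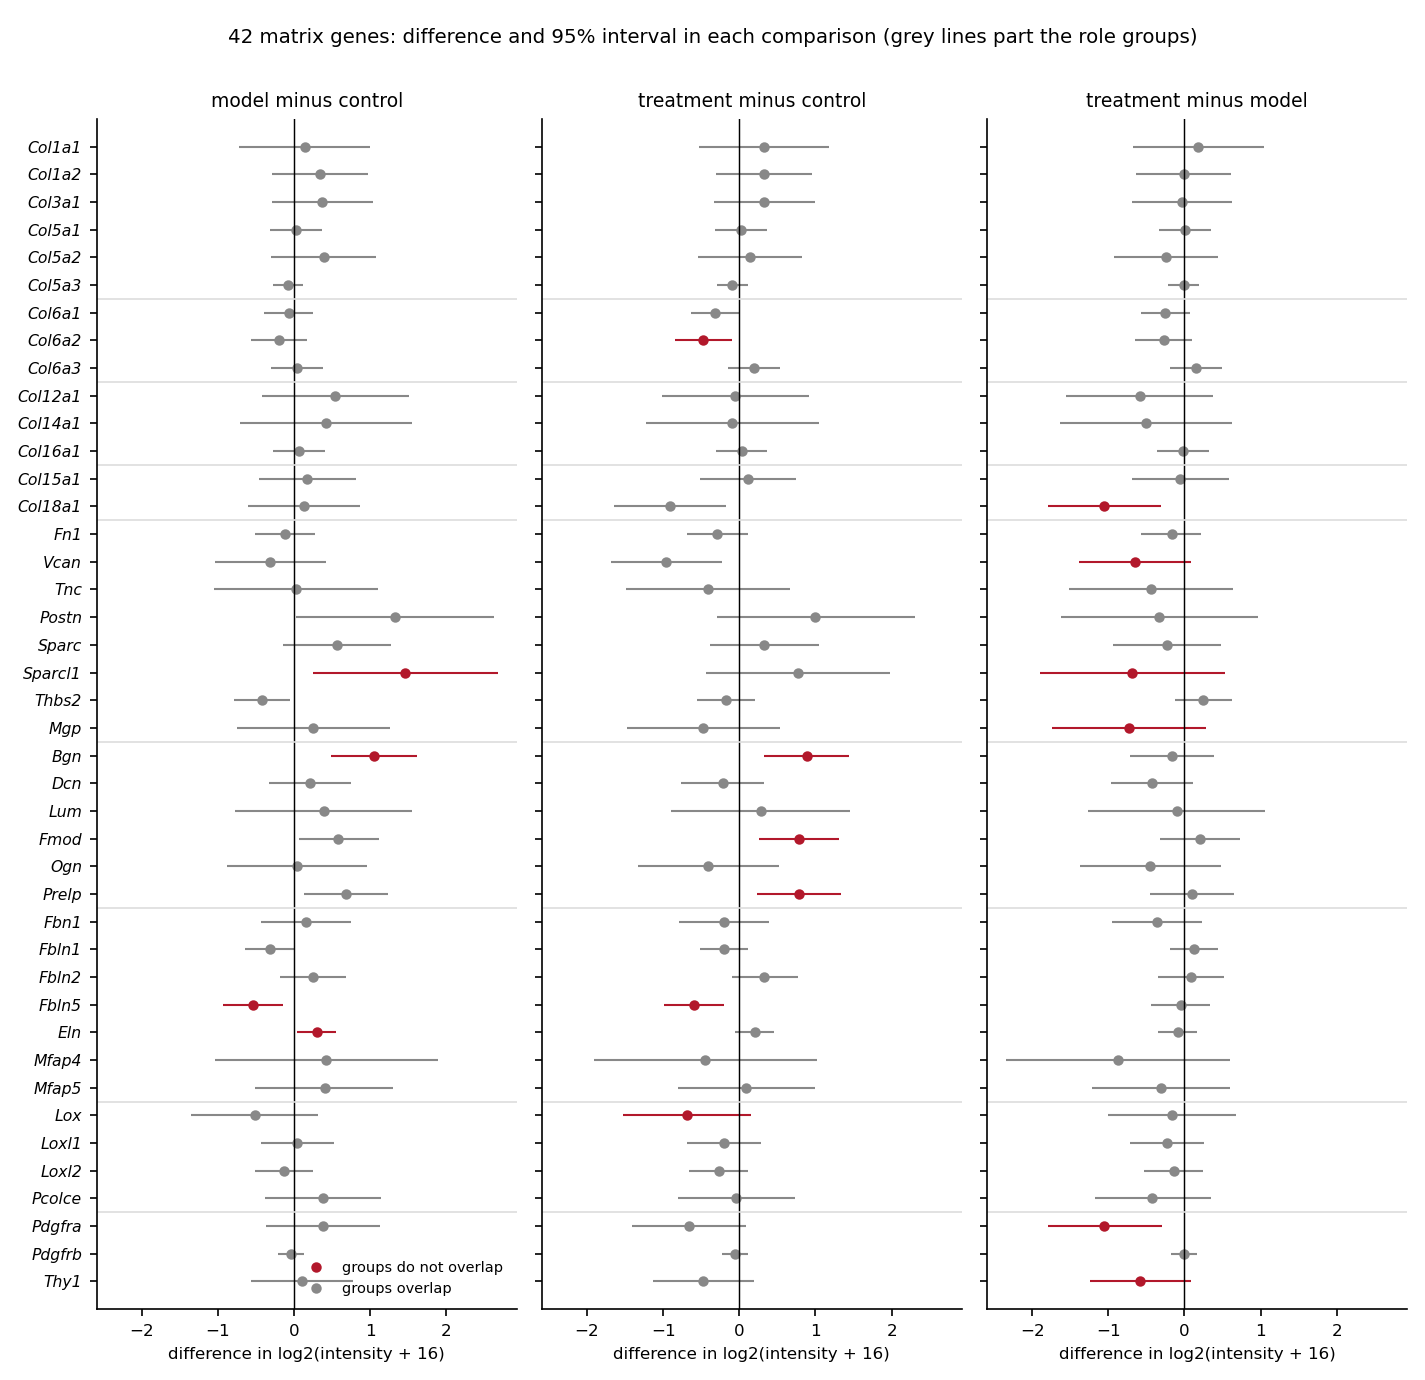
Log2 fold change of each of the 42 matrix genes with its 95% interval, in 1 panel each for model minus control, treatment minus control and treatment minus model. Genes run down the page by role, the vertical line marks 0, and red marks genes whose groups do not overlap. No gene was called in any panel. Bgn lies to the right of 0 in both comparisons with control, and Pdgfra and Col18a1 lie to the left in treatment against model.

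Treatment against model addressed electroacupuncture on the background of induction, and uses no control array for its means. Most matrix genes had a lower mean in treatment arrays: 34 were lower and 8 higher, or 81% lower, where 61.1% of all genes were lower. The median difference was -0.20, against -0.05 over all genes, and single genes ran from -1.05 to 0.24. The adjusted p-values were 0.286 to 0.991. The median was -0.33 without treatment 31 and -0.08 without treatment 32, which held the lowest value of the 9 arrays in 16 of the 42 genes (38.1%), against 15.9% of all genes.

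Pdgfra and Col18a1 had the lowest differences. The other genes of their roles had -0.58 for Thy1, -0.01 for Pdgfrb and -0.06 for Col15a1. Pdgfra measured 9.66, 8.57 and 9.87 in treatment arrays, against 10.23, 10.60 and 10.40 in model arrays, so the groups were separated by 0.36. The means were 9.37 ± 0.70 in treatment and 10.41 ± 0.19 in model arrays (SD, n = 3 each), a difference of -1.05 (SE 0.33, interval -1.79 to -0.30, adjusted p = 0.286). Col18a1 measured 7.15, 6.23 and 6.79 in treatment arrays, against 7.90, 7.78 and 7.64 in model arrays, a gap of 0.49. Its difference was -1.05 (SE 0.32, interval -1.79 to -0.31, adjusted p = 0.286). In both genes treatment 32 was the lowest array of all 9, and without it the differences were -0.65 for Pdgfra and -0.80 for Col18a1. The endothelial markers had a median difference of -0.48 in the same comparison, with all 7 lower in treatment arrays and none called, and treatment 32 had their lowest summed intensity. The leukocyte markers had a median of -0.61 with 8 of 8 lower, the adipocyte markers -0.32 with 6 of 6 lower, and the epithelial markers 0.57 with 9 of 12 higher, none of them called.

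Mfap4, which encodes a microfibril-associated glycoprotein, measured 8.04, 6.42 and 7.00 in treatment arrays, against 7.67, 8.62 and 7.78 in model arrays, a difference of -0.87 (SE 0.64, adjusted p = 0.523). Mgp, which encodes the calcification inhibitor matrix Gla protein, measured 10.04, 9.24 and 10.21 in treatment arrays, against 10.25, 10.85 and 10.59 in model arrays, a difference of -0.73 (SE 0.44, adjusted p = 0.445). The Mgp groups were separated by 0.04 and the Mfap4 groups overlapped through treatment 31. Vcan averaged 6.55 ± 0.60 in treatment and 7.20 ± 0.16 in model arrays (difference -0.65, adjusted p = 0.373). Thy1, a fibroblast surface protein, averaged 5.91 ± 0.12 in treatment and 6.48 ± 0.27 in model arrays (difference -0.58, adjusted p = 0.381). Sparcl1 averaged 10.11 ± 0.50 in treatment and 10.79 ± 0.17 in model arrays (difference -0.69, adjusted p = 0.542). Without treatment 32 the difference was -0.31 for Vcan and -0.42 for Sparcl1.

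The 6 fibrillar chains had differences of -0.24 to 0.18 in treatment against model. The difference was 0.18 for Col1a1 (interval -0.67 to 1.04, adjusted p = 0.825), -0.01 for Col1a2 (-0.64 to 0.61, adjusted p = 0.986) and -0.03 for Col3a1 (adjusted p = 0.966). The intervals of these 3 genes include changes of over 0.6 either way, so a difference of that size was not excluded. Beside Col1a1, the highest differences were 0.24 for Thbs2 (adjusted p = 0.486), 0.20 for Fmod (adjusted p = 0.678), 0.15 for Col6a3 (adjusted p = 0.629), 0.12 for Fbln1 (adjusted p = 0.673) and 0.10 for Prelp (adjusted p = 0.854). The groups overlapped for each of these genes. Fn1 had a difference of -0.17 (adjusted p = 0.633), Dcn -0.43 (adjusted p = 0.408) and Lum -0.10 (adjusted p = 0.937). No gene was higher in every treatment array than in every model array, where 8.1% of all genes were. Col18a1, Mgp, Pdgfra, Sparcl1, Thy1 and Vcan were lower in every treatment array, or 14.3%, against 19.9% of all genes.

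By role, the medians differed between the comparisons. Treatment against model gave -0.01 for the 6 fibrillar chains, -0.25 for the 3 chains of collagen VI, -0.51 for the 3 fibril-associated collagens and -0.55 for the multiplexins Col15a1 and Col18a1. It gave -0.13 for the leucine-rich proteoglycans, -0.38 for 8 adhesive and matricellular genes, -0.09 for 7 elastic fibre genes, -0.20 for 4 crosslinking and processing genes and -0.58 for Pdgfra, Pdgfrb and Thy1. Treatment against control gave -0.32 for collagen VI, -0.05 for the fibril-associated collagens, -0.23 for the adhesive and matricellular genes, -0.20 for the elastic fibre genes, -0.24 for the crosslinking genes and -0.47 for the stromal surface genes. Model against control gave -0.07, 0.42, 0.14, 0.25, -0.05 and 0.11 for those roles. None of these groups held a called gene. With 1 array left out, the leucine-rich proteoglycans and collagen VI kept one sign of the median in each comparison. For the proteoglycans it lay at 0.35 to 0.55 in model against control, 0.24 to 0.63 in treatment against control and -0.39 to -0.01 in treatment against model. For collagen VI it lay at -0.16 to -0.01, -0.44 to -0.21 and -0.37 to -0.09 in the same order. In model against control the sign turned for the fibrillar chains (-0.02 to 0.55), the matricellular genes (-0.16 to 0.62) and the elastic fibre genes (-0.07 to 0.37). It also turned there for the multiplexins (-0.01 to 0.46), the crosslinking genes (-0.11 to 0.07) and the stromal surface genes (-0.07 to 0.47). In treatment against control it turned for the fibrillar chains (-0.04 to 0.51) and the fibril-associated collagens (-0.29 to 0.34). The matricellular genes (-0.39 to 0.06) and the elastic fibre genes (-0.33 to 0.11) turned there as well. In treatment against model it turned for the fibrillar chains (-0.13 to 0.12) and the elastic fibre genes (-0.17 to 0.04).

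The level of the matrix genes as a whole differed between arrays of the same group. The median deviation of the 42 genes from their own means was 0.11, -0.38 and -0.04 on treatment 31, 32 and 33, then 0.21, 0.24 and -0.05 on model 21, 22 and 23, and -0.33, -0.12 and 0.35 on control 41, 42 and 43. The pooled within-group SD of this median was 0.26, a spread of single arrays. The shift of 0.17 between model and control rests on means of 3 arrays each, so this SD does not measure its precision. The range over the 9 arrays had a median of 1.22 over the matrix genes, from 0.23 for Pdgfrb to 2.84 for Postn, against 0.51 over all genes. Within the groups, the median SD of a matrix gene was 0.29 in treatment, 0.23 in model and 0.44 in control arrays, against 0.11, 0.12 and 0.15 over all genes. The summed intensity of the matrix genes was 29415, 19653 and 25727 in treatment arrays, 30481, 31357 and 25259 in model arrays and 17631, 23244 and 31678 in control arrays. Controls 41 and 42, which had the lowest sums among the controls, had the highest epithelial sums (19836 and 14501). Treatment 32 had a matrix sum of 19653, below that of control 42, at an epithelial sum of only 6358. A link between the 2 sums was not tested.

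**Figure D4:**
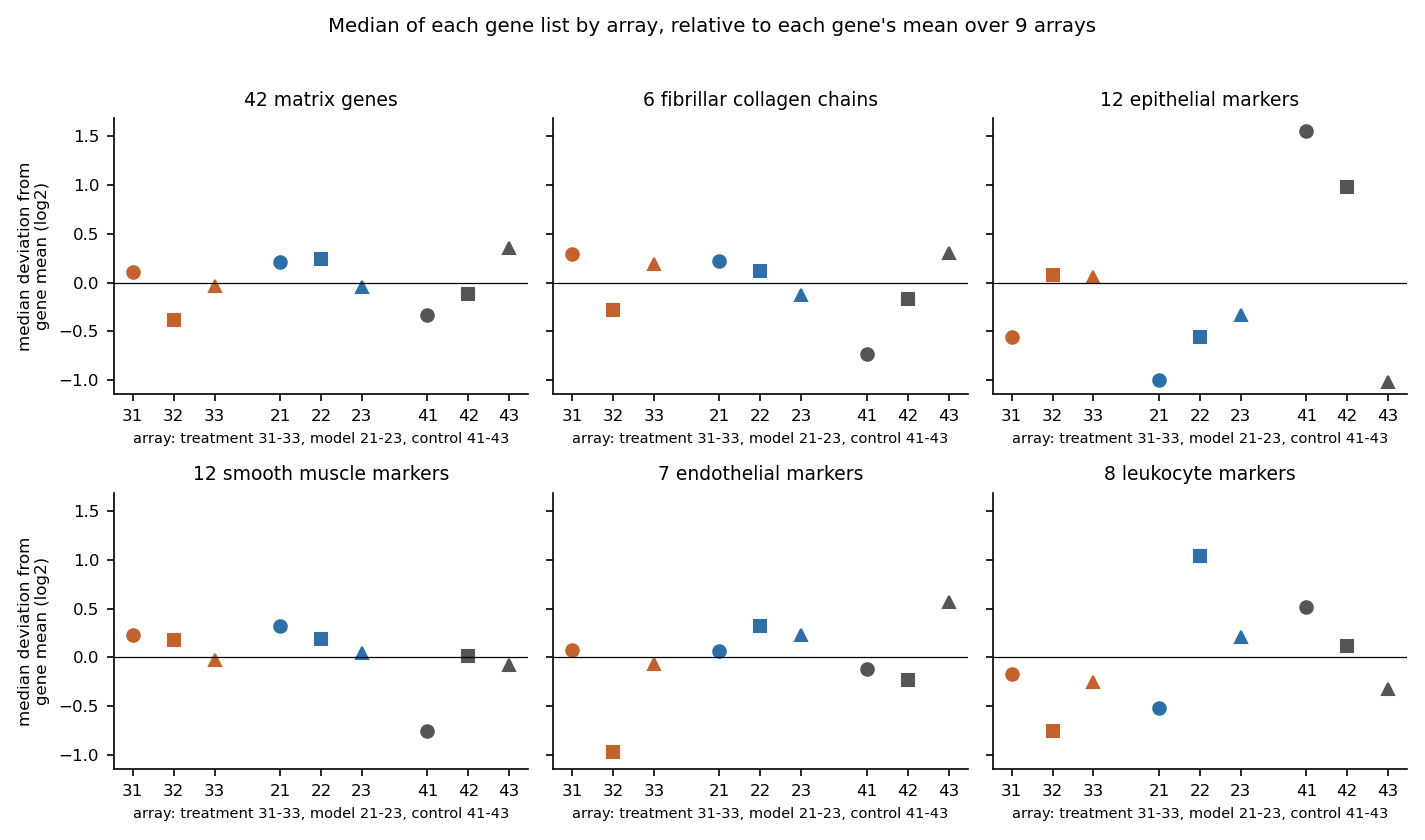
Median deviation of each gene list from its members' own means over the 9 arrays, in log2 units, for all matrix genes, the fibrillar collagens and 4 marker lists. Arrays run from left to right as treatment, model and control, and each point is the median over a list on 1 array. The epithelial list stands at 1.56 and 0.98 on controls 41 and 42 and at -1.02 on control 43, where the matrix genes stand at -0.33, -0.12 and 0.35. On treatment 32 the epithelial list stands at 0.08 and the matrix genes at -0.38.

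Of the 42 genes, 19 had several probe sets past the filter. Their differences disagreed in sign for 5 genes in model against control, for 1 gene in treatment against control and for 3 genes in treatment against model. In model against control the probe sets of Ogn, which encodes mimecan, gave -0.30 to 0.04, those of Eln -0.02 to 0.30, those of Col18a1 -0.06 to 0.13, those of Pdgfrb -0.04 to 0.12 and those of Col6a3 -0.04 to 0.04. In treatment against control Pdgfrb gave -0.35 to 0.08. In treatment against model Col1a1 gave -0.04 to 0.18, Col1a2 -0.01 to 0.09 and Eln -0.09 to 0.23. The other genes with several probe sets had the same sign in each comparison. Bgn, Fmod, Prelp, Postn, Sparcl1 and Pdgfra rest on 1 probe set each.

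The genes around the matrix were read from fixed lists. In the list of other collagen chains, 11 of 17 were tested and 1 was called, in treatment against control, where 0.51% of all genes were called. Col4a6, a basement membrane chain found beside smooth muscle, measured 7.32, 7.42 and 7.23 in treatment arrays, against 5.15, 5.96 and 5.89 in control arrays. It was higher by 1.66 in treatment (adjusted p = 0.0311), and no arrays overlapped. The call was lost without any single treatment array, control 41, control 42 or model 22, with adjusted p-values of 0.0521 to 0.15 and differences of 1.4 to 1.8. In model arrays it measured 7.63, 7.36 and 8.03, a difference of 2.01 from control (adjusted p = 0.0581) and, for treatment against model, of -0.35 (adjusted p = 0.485). The smooth muscle markers had a median difference of 0.43 in treatment and 0.48 in model arrays from control, with all 12 higher and none called. No gene was called among 13 of 21 genes of collagen folding and processing, 11 of 16 collagen and fibronectin receptors, 16 of 17 genes of TGF-beta signalling and 14 of 19 matrix proteases and inhibitors. Their median differences in model against control were 0.02, 0.21, 0.18 and 0.39, and those in treatment against model were -0.09, -0.18, -0.19 and -0.35.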

How the data were processed

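Biotin-labelled total RNA was measured on Affymetrix rat arrays, per the labels' protocols. The values are the deposited probe set intensity on a linear scale, 1 value per array, and the submitters' processing notes name MAS5. No source used here gives its settings, scaling or detection calls, so the background level is unknown. Intensities ran from 1.87 to 7895.7 with array medians of 23.56 to 24.02. The number of arrays limits the precision.

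Of 31042 probe sets that were not Affymetrix controls, 20826 carried 1 symbol in the platform annotation, 436 carried several and 9780 carried none. Of those with 1 symbol, 20758 were matched to a RefSeq table by gene ID. Probe sets at or above the 40th percentile of their array on 3 or more arrays were kept (19326, of which 14553 had 1 symbol), and the brightest stood for its gene, giving 10973 genes. The 3 comparisons were contrasts of 1 fit to log2(intensity + 16) with limma 3.58.1 in R 4.3.3, with a variance trend and two-sided tests. Adjusted p-values are Benjamini-Hochberg values over all 10973 genes, and a gene was called under 0.05. The fit was tested on simulated data. The alternatives tried were 1 or 64 in place of the 16, median centring, quantile normalization, no filter or the 60th percentile, the mean of probe sets, no variance trend, the 6 compared arrays alone, a replicate block and each array left out. Named in each comparison were the 6 highest and 4 lowest differences, with Col1a1, Col1a2, Col3a1, Fn1, Dcn and Lum. The 44 genes, the lists and this rule were chosen with earlier results of these data known. Promoter sequences are from RefSeq (GRCr8). Figures were drawn with matplotlib 3.10.9.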

Additional observations from a re-analysis of the deposited data

How the results depend on the processing

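No matrix gene was called in any comparison under the 10 settings that kept all arrays of both groups. Leaving out 1 array gave 0 to 3 called matrix genes in model against control, 0 to 2 in treatment against control and 0 to 0 in treatment against model, and every call came without control 43. The median over the matrix genes then lay between -0.04 and 0.46, between -0.25 and 0.13, and between -0.33 and -0.08 in these comparisons, lowest without control 41, control 41 and treatment 31, and highest without control 43, control 43 and treatment 32. Over all genes, 3 were called in model against control, 1 without the filter or with the 6 compared arrays alone, and 0 to 1384 with 1 array left out. In treatment against control 56 were called, 27 with the replicate block, and 0 to 720 with 1 array left out: 0 without treatment 33, 2 without treatment 31, 11 without treatment 32, 4 without control 41, 5 without control 42, 13 without model 22, 95 without model 23 and 720 without control 43. In model against control the count was 0 without model 21, model 23, control 41 or control 42, 1 without model 22 or any single treatment array, and 1384 without control 43. In treatment against model 0 were called and 0 to 3 with 1 array left out. Of the 56 calls 19 were higher in treatment, against 27 of 55 with quantile normalization and 27 of 52 with the 6 compared arrays alone. The block used the last digit of the array numbers, which no label ties to a shared litter or day; it gave 4, 27 and 0 called genes and no called matrix gene. Of 46 named differences, 35 kept their sign in every setting. Col1a2 in treatment against model changed sign with the mean of probe sets (0.04) and Col3a1 with quantile normalization (0.01). With 1 array left out, the range included both signs in model against control for Col1a1 (-0.15 to 0.51), Fn1 (-0.27 to 0.02) and Lum (-0.07 to 0.85). The same was seen in treatment against control for Dcn (-0.37 to 0.04) and Lum (-0.17 to 0.73), and in treatment against model for Col1a1 (-0.02 to 0.48), Col1a2 (-0.16 to 0.21), Col3a1 (-0.17 to 0.12), Fmod (-0.05 to 0.33), Lum (-0.57 to 0.16) and Prelp (-0.02 to 0.23). The cause was not tested.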

Other observations

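Of the 16 TGF-beta genes tested, none was called, and their median difference was -0.07 in treatment against control and 0.18 in model against control. Tgfb2 and Ltbp4, picked after their values were seen, had the highest differences from control among them. Tgfb2, a ligand of the TGF-beta family, measured 8.09, 8.07 and 9.32 in treatment and 7.64, 7.61 and 8.86 in model arrays, against 5.5, 5.37 and 6.71 in control arrays. The difference was 2.63 in treatment against control (adjusted p = 0.0693) and 2.17 in model against control (adjusted p = 0.203). Ltbp4, which encodes a latent TGF-beta binding protein of elastic fibres, measured 8.57, 8.60 and 8.37 in treatment and 8.89, 8.71 and 8.69 in model arrays, against 7.08, 7.48 and 8.0 in control arrays. Its difference was 0.99 in treatment against control (adjusted p = 0.0926) and 1.24 in model against control (adjusted p = 0.119). Every treatment and model array was above every control array for both genes.

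With all arrays, no gene of the 5 pathway lists was called in model against control. The fit without control 43 was picked out after that array was seen to stand apart. It rests on controls 41 and 42 alone, the arrays with the highest epithelial sums, and the part of that difference was not tested. Without control 43, 10 of the 65 genes tested in the 5 pathway lists were called higher in model against control (15.4%), where 5.7% of all genes were. They were Tgfb2, Ltbp3 and Ltbp4, the basement membrane chains Col4a5 and Col4a6, the integrin subunit Itgb1, Loxl3 of the lysyl oxidase family, the protease inhibitor Timp2, and the proteases Adamts1 and Ctsk. Sdc1, Smad2 and Timp1 were called lower (4.62%), where 6.92% of all genes were. In treatment against control Tgfb2, Ltbp4, Col4a6 and Timp2 were called higher (6.15%), where 1.49% of all genes were, and Sdc1, Timp1 and Mmp7 lower (4.62%), where 5.08% were. Of the 6 adipocyte markers tested, Plin4 and Cfd were called higher in model against control without control 43. In that fit 5 of the 6 had a higher mean in model arrays and 1 a lower one, at -1.93, with a median difference of 0.42. Their summed intensity went the other way, at 539, 457 and 526 in model arrays, against 734 and 647 on controls 41 and 42.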
